A study of Homo sapiens with 12 samples.

Results

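Glycolysis and the pentose phosphate pathway were examined through 35 genes, all of which had probes on the 12 arrays of the series. The genes were chosen by symbol, and a probe was assigned to a gene when the RefSeq accession given for it in the array files matched that symbol in the RefSeq gene table. The 35 genes had 54 probes, out of 41000 gene probes and 16557 named genes on the array. Of the 54 probes, 50 passed the filter on dim signal and were tested, and they represented 34 genes.

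The arrays were one-colour Agilent 44 k chips of a single inducible clone, in which the splicing factor SRSF2 is under a Tet-responsive promoter. The clone was made from H358, a human cell line of lung adenocarcinoma. Both conditions were taken from this clone at 24 hours. In the SRSF2 over-expression condition (6 arrays) the cells had received 1 μg/mL doxycycline, and the control arrays (6 arrays) are labelled with no treatment. The arrays lay on 3 slides that each held 2 arrays of both conditions, and the study lists 2 arrays for each of 3 labelings per condition, so not all arrays stand for separate cultures and p-values measure the spread between arrays.

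Signals are given on the log2 scale with the 75th percentile of each array subtracted, so that a value of 0 is the 75th percentile and a difference of 1 is a 2-fold change. Spots well above background made up 54.2% to 67.8% on the control arrays and 55.2% to 68.0% on the others. Adjusted p-values are those of limma with Benjamini-Hochberg adjustment over 24330 probes, with 0.05 as the threshold. Epithelial markers (EPCAM, CDH1 and the keratins, 9 probes) were all measured, and 2 of the 9 were lower (log2 fold change of -1.32 for KRT7 and -0.50 for KRT19) and 2 higher (0.21 for EPCAM and 0.18 for 1 KRT8 probe). Of 5 tested probes of lung alveolar genes, 3 were higher (0.42 and 0.34 for NKX2-1, 0.63 for 1 NAPSA probe) and 0 lower, while the 4 probes of the fibroblast genes COL1A2, PDGFRB and DCN and those of PTPRC (leukocytes) and CDH5 (endothelium) were well above background on 0 arrays. Other leukocyte markers were measured. Of the 5 leukocyte probes 3 were tested, those of CD14, CD68 and 1 of CD3E, with 0 lower and 0 higher. CD14 and CD68 were well above background on all 6 arrays of both conditions, and that CD3E probe on 5 of 6. Of the dim endothelial markers that were measured, PECAM1 was 0.46 lower and 1 probe of VWF was 0.31 higher on the log2 scale. RNA was pooled from many cells, so fewer cells with a transcript and less of it per cell cannot be told apart.

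The SRSF2 probe (A_23_P77776) ran against the label. On the control arrays its lowest, median and highest values were 3.74, 3.96 and 4.03, compared with 2.29, 2.51 and 2.56 on those labelled SRSF2 over-expression. The conditions did not overlap, and the control arrays were the higher ones, with a log2 fold change of -1.46 (SE, the standard error, 0.06, limma adjusted p = 1.68e-09). Where in the transcript the probe lies is not given in the sources used here, so whether it reads the transgene is not known. The study also assayed SRSF2 in this clone by RT-PCR and western blot, on material that is not analysed here. All directions below are therefore those of the labels. Doxycycline was given in the over-expression condition alone, so effects of the drug and of SRSF2 cannot be told apart.

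Glycolysis converts glucose to pyruvate in the cytosol and yields ATP and NADH. Glucose enters through facilitative transporters, is trapped by hexokinase and is committed to the pathway by phosphofructokinase, whose activity is set in part by the fructose-2,6-bisphosphate that PFKFB enzymes make and remove. Pyruvate is then reduced to lactate, which leaves the cell through monocarboxylate transporters, or enters mitochondria, where the pyruvate dehydrogenase complex oxidises it unless pyruvate dehydrogenase kinases switch the complex off. The pentose phosphate pathway branches off after the hexokinase step and supplies NADPH and ribose. Many tumours, lung adenocarcinoma included, take up glucose and release lactate even with oxygen at hand.

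The largest differences among the 35 genes were falls. On the arrays labelled SRSF2 over-expression, PFKP, PFKFB4, the neuronal-type enolase ENO2 and 1 of the 2 HK2 probes fell by at least 2-fold. The other HK2 probe, 1 of the 2 PFKL probes and both probes of the kinase PDK1 fell by at least 1.5-fold, and no probe of the 35 genes rose by as much. The enzymes between aldolase and pyruvate kinase, lactate dehydrogenase and the non-oxidative pentose phosphate enzymes stayed within 1.4-fold, with ENO2 as the exception.

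Of the 50 tested probes, 28 passed the test (56.0%), beside 57.7% of all probes on the array, so the share of probes past the test was near the background. Split by direction, 22 were lower (44%, beside 28.0% of all probes) and 6 were higher (12%, beside 29.7%). At least 1.5-fold lower were 8 probes (16%, beside 11.3% of all), and 0 were at least 1.5-fold higher, beside 11.7% of all. With the 2-fold limit, 4 probes were lower (8%, beside 3.31% of all) and 0 higher, beside 3.68%. The values of the conditions did not overlap for 19 probes (38.0%), beside 40.2% of all.

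By gene, 17 of the 34 genes had at least 1 probe past the test and lower (50%, beside 33.7% of 11592 genes), and 5 had at least 1 higher (14.7%, beside 36.2%). Of the 34 genes, 0 had probes past the test both ways, beside 3.09% of all, and 12 had no probe past it. The median log2 fold change of the 50 probes was -0.14, against 0.01 over all probes tested. Within slides 1, 2 and 3 the median was -0.11, -0.10 and -0.18.

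These counts depended on the processing. With scaling on 7 spike-in control probes, which moved the median of all probes to 0.22, 7 member probes passed the test (14%, beside 26.8% of all probes), and the member median was 0.07. Those 7 were the lower probes of HK2 (both), PFKP, PFKFB4 and ENO2 and the higher A_24_P254532 of PGK1 and A_32_P44568 of LDHA. With the normexp background model 5 passed it (10%, beside 11.6% of all), those of HK2 (both), PFKP, PFKFB4 and PDK3, all lower. Member probes not named here missed the test under both settings. Under normexp the member median (-0.01) lay above that of all probes (-0.10), so with that setting the group as a whole was not lower than the array. In every other setting the member median lay below that of all probes. The difference was -0.150 with spike-in scaling and -0.153 as fitted.

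**Figure D1:**
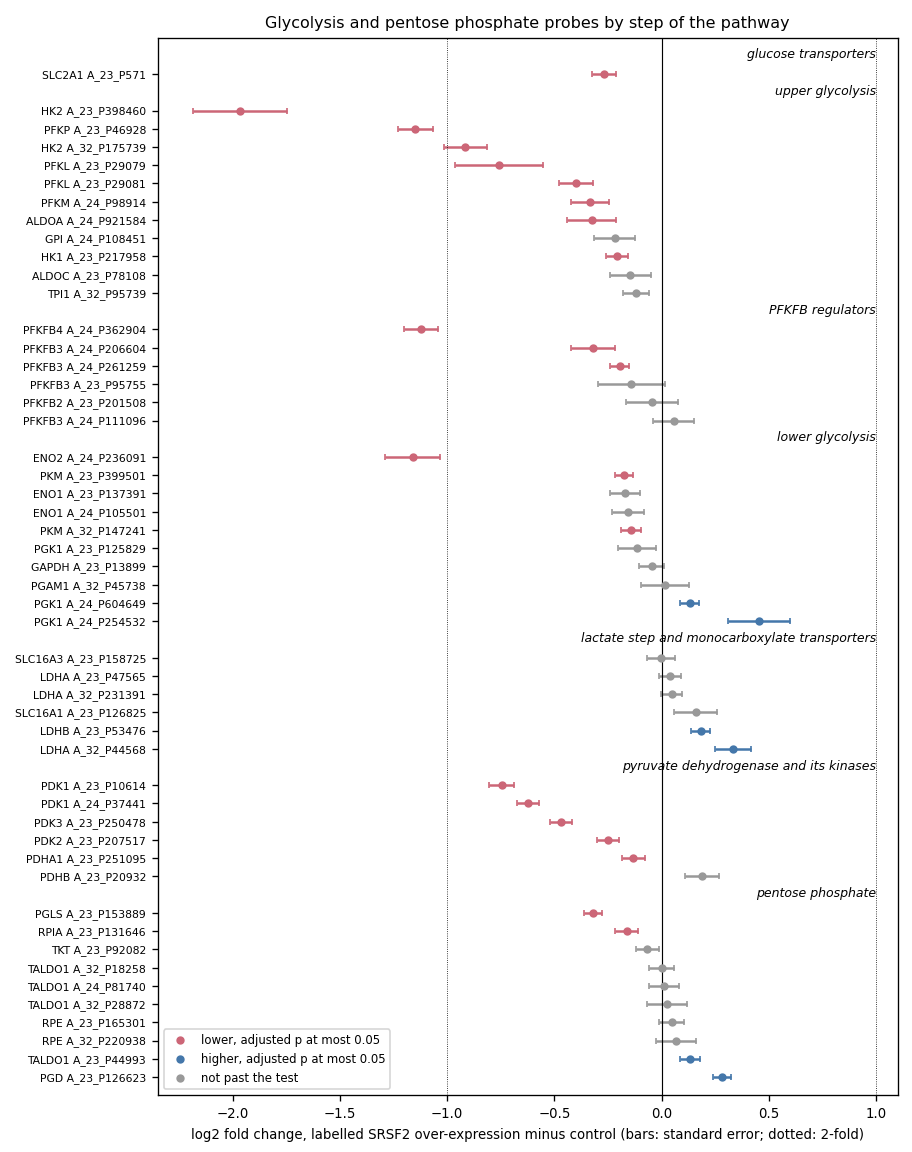
Log2 fold change (arrays labelled SRSF2 over-expression minus control, horizontal axis) of the 50 tested probes, one row per probe, grouped by step of the pathway, with the standard error as bars and dotted lines at 2-fold. Red points are lower and blue points higher past the test, and grey points did not pass. The 4 points beyond the left dotted line are probes of HK2, PFKP, PFKFB4 and ENO2.

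Glucose entry was represented by SLC2A1 (GLUT1), the widespread basal transporter, and SLC2A3 (GLUT3), a high-affinity transporter. SLC2A1 (A_23_P571) had values of 4.49, 4.55 and 4.63 (lowest, median and highest) on the control arrays, compared with 4.17, 4.27 and 4.43 on those labelled SRSF2 over-expression. The conditions did not overlap and the change was small, with a log2 fold change of -0.27 (SE 0.06, limma adjusted p = 0.00119). It was -0.06 with spike-in scaling and -0.11 with normexp, past the test with neither. SLC2A3 was not well above background in either condition at A_23_P139669 (0 of 12 arrays), and at A_24_P81900 it was so on 3 control arrays and 0 others. The gene was not tested.

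Hexokinase, which phosphorylates glucose on entry, was represented by HK1, the isozyme of most tissues, and HK2, the inducible isozyme that is raised in many tumours. HK2 probe A_23_P398460 had values of -1.60, -1.38 and -0.91 on the control arrays, compared with -3.65, -3.55 and -2.59 on those labelled SRSF2 over-expression. Every array of the latter condition lay below every control array. The mean went from -1.29 ± 0.31 (SD, n = 6) to -3.26 ± 0.50 (SD, n = 6), a log2 fold change of -1.97 (SE 0.22, limma adjusted p = 6.67e-06), which left 25.6% of the control signal.

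The other HK2 probe, A_32_P175739, had control values of 2.57, 2.82 and 2.88 and values of 1.58, 1.93 and 2.06 on the other arrays, again without overlap. Its mean went from 2.76 ± 0.14 to 1.85 ± 0.21 (SD, n = 6 for both), a log2 fold change of -0.92 (SE 0.10, limma adjusted p = 5.29e-06). Both HK2 probes thus fell, by 3.91-fold and 1.89-fold. Within slides 1, 2 and 3 the first differed by -2.0, -1.70 and -2.20 and the second by -0.82, -1.01 and -0.91. Both passed the test under all 19 alternatives run, and the smallest changes, with normexp, were -1.27 and -0.68.

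HK1 (A_23_P217958) fell by 0.21 on the log2 scale (SE 0.05, limma adjusted p = 0.00428), with control values of 1.74 to 1.93 and values of 1.53 to 1.74 on the other arrays. Its change was -0.0003 with spike-in scaling (limma adjusted p = 0.999) and -0.13 with normexp (0.653). It also did not pass without slide 3 (limma adjusted p = 0.0710) or with the mean of 2 arrays as 1 replicate (0.109, and 0.0545 with slide as a block). The other HK1 probe, A_24_P367965, was not tested, being well above background on 1 control array and 0 of the others.

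Phosphofructokinase, the main control point of glycolysis, is built from subunits of the liver type (PFKL), muscle type (PFKM) and platelet type (PFKP), and all of these were lower. PFKP (A_23_P46928) had values of 4.36, 4.58 and 4.67 on the control arrays, compared with 3.18, 3.44 and 3.57 on those labelled SRSF2 over-expression. The gap between the conditions left no overlap. The mean went from 4.55 ± 0.13 to 3.40 ± 0.16 (SD, n = 6 for both), a log2 fold change of -1.15 (SE 0.08, limma adjusted p = 1.19e-07). It differed by -1.18, -1.04 and -1.23 within slides 1, 2 and 3, and it passed the test under all 19 alternatives run.

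PFKL probe A_23_P29079 had control values of 3.26, 3.56 and 3.96 and values of 2.12, 2.78 and 3.34 on the other arrays, which overlapped. The mean went from 3.56 ± 0.27 to 2.80 ± 0.48 (SD, n = 6 for both), a log2 fold change of -0.76 (SE 0.21, limma adjusted p = 0.00666; exact permutation test, two-sided p = 0.0130). The fall was uneven, at -1.04, -0.15 and -1.08 within slides 1, 2 and 3, and without slide 1 it did not pass the test (log2 fold change -0.62, limma adjusted p = 0.101). The other PFKL probe, A_23_P29081, fell by 0.40 on the log2 scale (SE 0.08, limma adjusted p = 0.000922) without overlap. PFKM (A_24_P98914) had a log2 fold change of -0.33 (SE 0.09, limma adjusted p = 0.00595). All 7 tested probes of hexokinase and phosphofructokinase were thus lower and past the test, beside 28.0% of all probes. Of these, 3 (HK2 at both probes and PFKP) remained past it with normexp and with spike-in scaling. With the mean of 2 arrays as 1 replicate, HK1 (limma adjusted p = 0.109), PFKL A_23_P29079 (0.0564) and PFKM (0.0866) did not pass.

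Among the other enzymes of upper glycolysis, the aldolase ALDOA (A_24_P921584) had a log2 fold change of -0.33 (SE 0.11, limma adjusted p = 0.0243). It differed by -0.41, 0.11 and -0.68 within slides 1, 2 and 3, so that slide 2 ran the other way. It did not pass the test without slide 1 (limma adjusted p = 0.157), without slide 3 (0.392) or with the replicate number as a block (0.0544). GPI, the isomerase that converts glucose-6-phosphate to fructose-6-phosphate, changed by -0.22 (limma adjusted p = 0.0680), the aldolase isozyme ALDOC by -0.15 (0.208) and the triose phosphate isomerase TPI1 by -0.12 (0.102). With a block for slide these 3 probes passed the test (limma adjusted p = 0.0133, 0.00528 and 0.0389), and GPI and ALDOC also did with the replicate number as a block (0.0263 and 0.0203). GPI also passed it without slide 1 (0.0326).

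**Figure D2:**
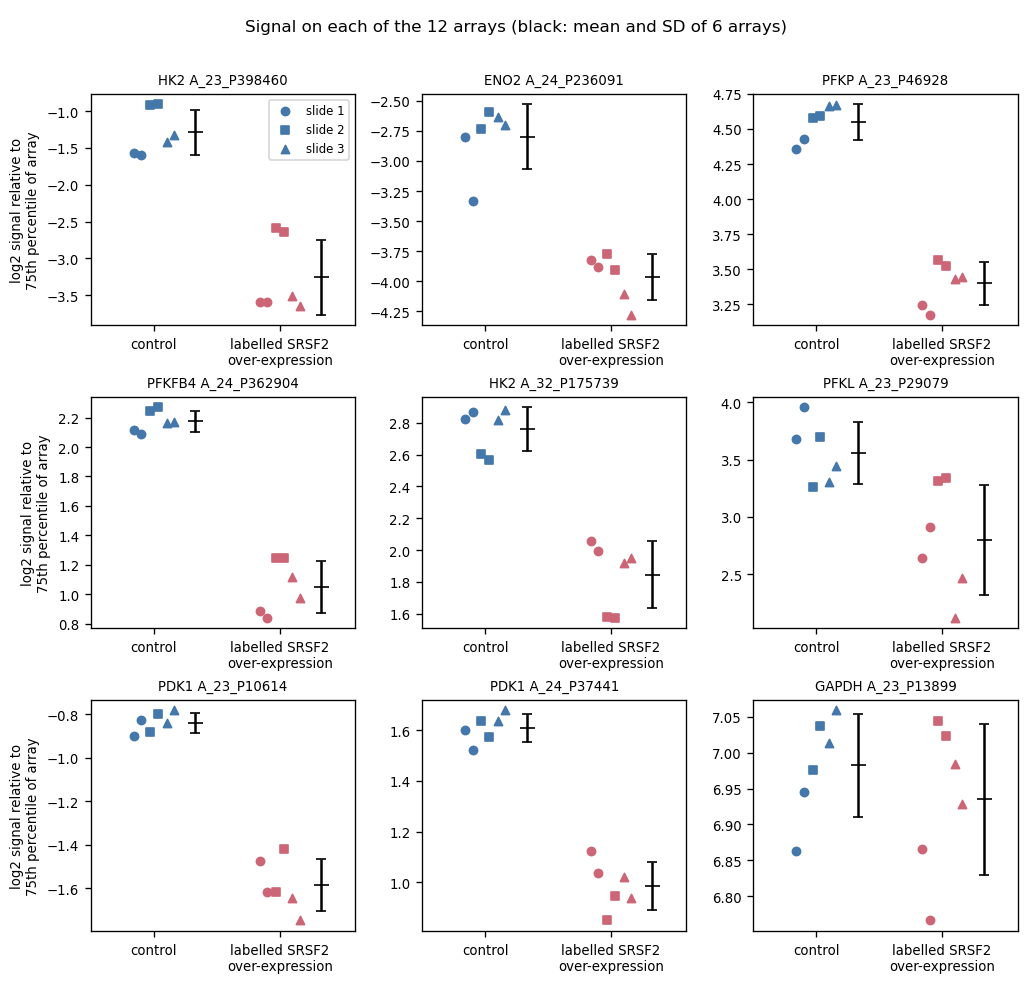
Log2 signal, with each array's 75th percentile as 0 (vertical axis, a separate scale in each panel) on the 12 arrays for the 8 probes that fell by at least 1.5-fold and for GAPDH. Blue points are control arrays, red points arrays labelled SRSF2 over-expression, the marker gives the slide, and the black bar is the mean with the SD of 6 arrays. In 7 of the panels the red points lie below all blue points, while those of PFKL A_23_P29079 and GAPDH overlap.

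PFKFB enzymes make and degrade fructose-2,6-bisphosphate, the strongest activator of phosphofructokinase, and PFKFB3 and PFKFB4 are induced in many tumours. PFKFB4 (A_24_P362904) had values of 2.09, 2.17 and 2.27 on the control arrays, compared with 0.84, 1.05 and 1.25 on those labelled SRSF2 over-expression. No value of one condition reached those of the other. The mean went from 2.17 ± 0.07 to 1.05 ± 0.18 (SD, n = 6 for both), a log2 fold change of -1.12 (SE 0.08, limma adjusted p = 9.53e-08), with -1.24, -1.01 and -1.12 within slides 1, 2 and 3. It passed the test under all 19 alternatives run.

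The 4 PFKFB3 probes were less uniform. A_24_P261259 fell by 0.20 on the log2 scale (limma adjusted p = 0.00228), and with spike-in scaling its change was 0.01. A_24_P206604 fell by 0.32 (limma adjusted p = 0.0157), and stood well above background on 5 arrays of the control condition and 4 others, so that it was tested through the control condition alone. It did not pass without slide 2 (limma adjusted p = 0.0568) or slide 3 (0.0574). A_24_P111096 changed by 0.06 (limma adjusted p = 0.645) and A_23_P95755 by -0.14 (0.458). The latter passed the test without slide 1, with -0.38 (limma adjusted p = 0.00291). PFKFB2 (A_23_P201508), the heart-type enzyme, changed by -0.04 (limma adjusted p = 0.776), and its other probe, A_24_P413669, was well above background on 2 arrays of either condition and was not tested.

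In lower glycolysis ENO2 stood apart from its neighbours. ENO2 is the enolase of neurons and neuroendocrine cells and catalyses the same reaction as the general enolase ENO1. Its probe A_24_P236091 had values of -3.33, -2.72 and -2.59 on the control arrays, compared with -4.28, -3.90 and -3.77 on those labelled SRSF2 over-expression, without overlap. The mean went from -2.80 ± 0.27 to -3.96 ± 0.19 (SD, n = 6 for both), a log2 fold change of -1.16 (SE 0.13, limma adjusted p = 5.53e-06). It differed by -0.79, -1.18 and -1.52 within slides 1, 2 and 3. The signal was dim, though well above background on all 12 arrays, and under normexp it fell by 0.78 and did not pass the test (limma adjusted p = 0.259). The ENO1 probes changed by -0.16 (A_24_P105501, limma adjusted p = 0.0874) and -0.17 (A_23_P137391, 0.0545, fitted on 11 arrays), and both passed the test with slide as a block (0.00291 and 0.00409), with the replicate number as a block (0.00881 and 0.0233) and without slide 2 (0.0428 and 0.0409).

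GAPDH (A_23_P13899), which oxidises glyceraldehyde-3-phosphate and served as one of the RT-PCR references of the study, had values of 6.86, 7.00 and 7.06 on the control arrays and 6.77, 6.96 and 7.04 on the other arrays. The conditions overlapped almost fully. The mean went from 6.98 ± 0.07 to 6.94 ± 0.11 (SD, n = 6 for both), a log2 fold change of -0.05 (SE 0.06, limma adjusted p = 0.514), with -0.09, 0.03 and -0.08 within slides 1, 2 and 3. It passed the test under none of the 19 alternatives, which gave -0.08 to 0.16. The mutase PGAM1 changed by 0.02 (limma adjusted p = 0.918).

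PGK1, the kinase that forms the first ATP of the pathway, had 3 probes that did not move together. A_24_P254532 rose by 0.45 on the log2 scale (SE 0.14, limma adjusted p = 0.0167), from 0.71, 0.74 and 1.08 to 0.92, 1.17 and 1.77 (lowest, median and highest). A_24_P604649 rose by 0.13 (limma adjusted p = 0.0267), and A_23_P125829 changed by -0.12 (0.288). The third probe passed the test as lower with a block for slide (limma adjusted p = 0.00369), with the replicate number as a block (0.0206) and without slide 1 (0.0462). The rise of A_24_P254532 did not pass without slide 3 (limma adjusted p = 0.110), and that of A_24_P604649 without slide 1 (0.0591), slide 2 (0.0699) or slide 3 (0.0924). The pyruvate kinase gene PKM, which gives the last ATP, was lower at both probes, by 0.14 (A_32_P147241, limma adjusted p = 0.0198) and 0.18 (A_23_P399501, 0.00329), without overlap of the conditions. Without slide 3 the adjusted p-values were 0.203 and 0.0542, and with spike-in scaling the changes were 0.07 and 0.03.

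At the lactate step, 0 of 6 probes were lower (beside 28.0% of all probes) and 2 were higher (33.3%, near the 29.7% of all probes). LDHA, the lactate dehydrogenase subunit that predominates in glycolytic tumours, rose at A_32_P44568 by 0.33 on the log2 scale (SE 0.08, limma adjusted p = 0.00417), from 3.05, 3.23 and 3.44 to 3.37, 3.62 and 3.69. This rise did not pass the test without slide 2 (limma adjusted p = 0.0616), with the mean of 2 arrays as 1 replicate (0.0759) or with normexp (0.181), where its size was 0.51. Its other probes changed by 0.04 (A_23_P47565, limma adjusted p = 0.543) and 0.05 (A_32_P231391, 0.434). LDHB, the heart-type subunit, rose by 0.18 (A_23_P53476, SE 0.05, limma adjusted p = 0.00455, fitted on 11 arrays), without overlap. It did not pass with quantile normalization (limma adjusted p = 0.0596), with the mean of 2 arrays as 1 replicate (0.115), with spike-in scaling (0.362) or with normexp (0.210), which gave 0.48. The lactate exporter SLC16A3 (MCT4) changed by less than 0.01 on the log2 scale (limma adjusted p = 0.958, fitted on 11 arrays), and SLC16A1 (MCT1), which carries lactate in either direction, by 0.16 (0.197; with slide as a block 0.0405).

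**Figure D3:**
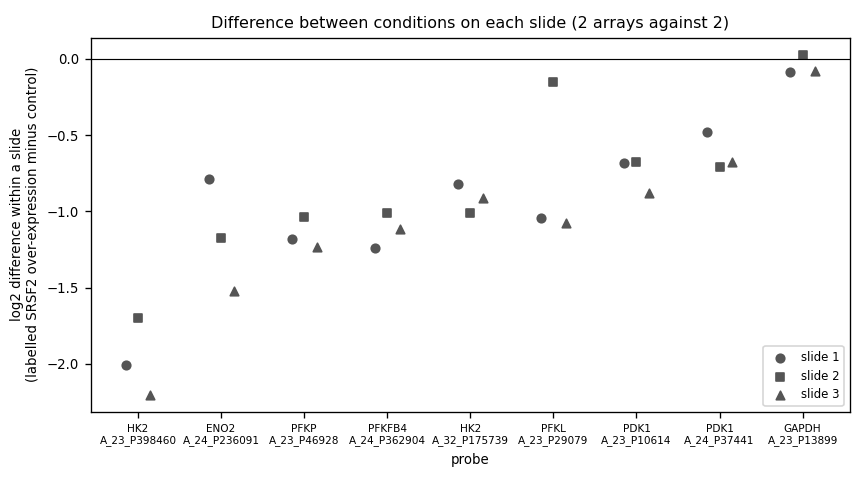
Log2 difference between the conditions (labelled SRSF2 over-expression minus control, vertical axis) computed on each of the 3 slides from 2 arrays against 2, for the 8 probes that fell by at least 1.5-fold and for GAPDH. Each point is 1 slide. All 24 points of the 8 probes lie below 0, from -2.20 (HK2, slide 3) to -0.15 (PFKL, slide 2). These probes were picked by their fall on the same arrays, which largely sets the side of the points. Of all 50 tested member probes, 38 had the same sign on the 3 slides, beside 18007 of 24330 over the array.

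The pyruvate dehydrogenase kinases PDK1, PDK2 and PDK3 were lower at all 4 tested probes, beside 28.0% of all probes. With spike-in scaling none of the 4 passed the test (limma adjusted p = 0.0614 to 0.904). The kinase PDK4, from the list of other carbohydrate genes, changed by 0.45 at its tested probe (A_24_P243749, limma adjusted p = 0.191). These kinases phosphorylate the complex and keep pyruvate out of mitochondrial oxidation, and PDK1 is the one best known from hypoxic cells. PDK1 probe A_23_P10614 had values of -0.90, -0.84 and -0.78 on the control arrays, compared with -1.75, -1.62 and -1.42 on those labelled SRSF2 over-expression. Probe A_24_P37441 had 1.52, 1.62 and 1.68 against 0.85, 0.98 and 1.12. The conditions were apart at both probes.

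The mean of A_23_P10614 went from -0.84 ± 0.05 to -1.59 ± 0.12 (SD, n = 6 for both), a log2 fold change of -0.75 (SE 0.06, limma adjusted p = 2.92e-07). That of A_24_P37441 went from 1.61 ± 0.06 to 0.98 ± 0.10, a log2 fold change of -0.62 (SE 0.05, limma adjusted p = 6.27e-07). PDK1 was thus reduced to 59.6% and 64.9% of the control signal. Within slides 1, 2 and 3 the probes differed by -0.68, -0.68 and -0.88 and by -0.48, -0.71 and -0.68. With normexp the changes were -0.61 and -0.49 (limma adjusted p = 0.0501 and 0.0535), and with spike-in scaling -0.54 and -0.41 (0.0614 and 0.166).

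PDK3 (A_23_P250478), another kinase of the family, had control values of 0.30, 0.38 and 0.40 and values of -0.19, -0.14 and 0.04 on the other arrays, without overlap. Its log2 fold change was -0.47 (SE 0.05, limma adjusted p = 4.24e-06), and it passed the test with normexp (-0.41, limma adjusted p = 0.0147) but not with spike-in scaling (-0.26, limma adjusted p = 0.411). PDK2 (A_23_P207517) fell by 0.25 (SE 0.05, limma adjusted p = 0.00136). It did not pass with spike-in scaling (-0.04, limma adjusted p = 0.904), with normexp (0.220) or with the mean of 2 arrays as 1 replicate (0.0669). The subunits of the enzyme that these kinases act on changed little. PDHA1 (A_23_P251095), the subunit that is phosphorylated, fell by 0.13 with an adjusted p at the threshold (limma adjusted p = 0.04997) and did not pass without slide 1 (0.150) or slide 2 (0.197), and with spike-in scaling its change was 0.08. PDHB (A_23_P20932) changed by 0.19 (limma adjusted p = 0.0606, fitted on 11 arrays) and passed the test as higher with slide as a block (0.00190) and with the replicate number as a block (0.0170).

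In the pentose phosphate pathway 2 of 10 probes were lower and 2 were higher (20% each, beside 28.0% lower and 29.7% higher of all probes). PGLS, which hydrolyses the lactone in the oxidative branch, had control values of 1.72, 1.78 and 1.81 and values of 1.37, 1.46 and 1.5 on the other arrays (A_23_P153889). PGD, the dehydrogenase that acts next and yields NADPH, had 2.60, 2.64 and 2.71 against 2.87, 2.94 and 3.00 (A_23_P126623). The conditions did not overlap at either probe, and the directions were opposite. PGLS fell by 0.32 on the log2 scale (SE 0.04, limma adjusted p = 2.30e-05), and PGD rose by 0.28 (SE 0.04, limma adjusted p = 7.01e-05). Neither passed the test with normexp or with spike-in scaling.

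In the non-oxidative branch the ribose-5-phosphate isomerase RPIA fell by 0.16 (limma adjusted p = 0.0191) and did not pass without slide 2 (0.104) or slide 3 (0.0563), and with spike-in scaling its change was 0.05. The transketolase TKT changed by -0.07 (limma adjusted p = 0.328, fitted on 11 arrays; with a block for slide 0.0327), and the epimerase RPE by 0.05 and 0.07 at its 2 probes. Of the 4 probes of the transaldolase TALDO1, A_23_P44993 rose by 0.13 (limma adjusted p = 0.0241), which did not pass without slide 2 (0.0657) or slide 3 (0.154), and the other 3 changed by 0.00 to 0.03.

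Several genes were thus measured more than once. Of the 10 genes with more than 1 tested probe, 6 had the same call at all of them as fitted. HK2, PFKL, PKM and PDK1 were lower (beside 28.0% of all probes), and ENO1 and RPE did not pass the test. With spike-in scaling both PKM changes were above 0 (0.07 and 0.03). In PFKFB3, PGK1, LDHA and TALDO1 some probes passed it and others did not.

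**Figure D4:**
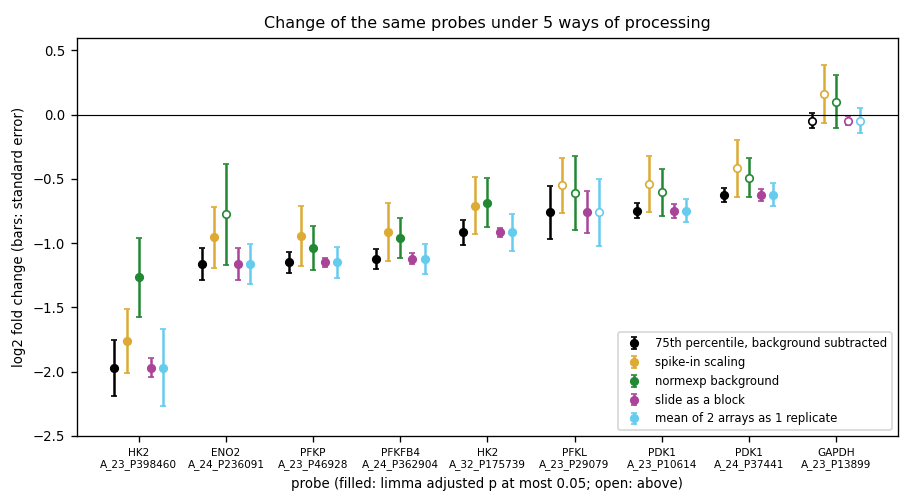
Log2 fold change (vertical axis, bars are standard errors) of the 8 probes that fell by at least 1.5-fold and of GAPDH, as fitted and under 4 alternatives. Filled points passed the test. HK2, PFKP and PFKFB4 are filled under all 5, ENO2 is open with normexp, PFKL A_23_P29079 and both PDK1 probes are open with spike-in scaling and with normexp, and the PFKL probe is also open with the mean of 2 arrays as 1 replicate.

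The promoters shown are those of genes picked by their fall of at least 1.5-fold in these data, so their shared direction is fixed by that choice. Several of them are textbook targets of the hypoxia-inducible factor, as are other members, among them LDHA, PGK1, SLC16A3, SLC2A1, ALDOA, PFKFB3 and PKM. Of the probes of LDHA, PGK1 and SLC16A3, 0 were lower and past the test as fitted without a block, beside 28.0% of all probes. The probes of SLC2A1 and ALDOA were lower and past it (log2 fold changes of -0.27 and -0.33). So were both PKM probes (-0.14 and -0.18) and 2 of the 4 PFKFB3 probes (-0.20 and -0.32). Whether the factor had a part in any change was not tested. The factor's binding motif has the core ACGTG, so this core was searched on both strands (read as CACGT on the other strand). Windows of 300 bases, most of them upstream of the transcription start, are those of RefSeq on GRCh38.p14, in which 32 of the 35 genes had an entry. The core and the E-box CACGTG, which contains it on both strands, are in capitals.
HK2 promoter, chr2:74833877-74834176 (plus strand): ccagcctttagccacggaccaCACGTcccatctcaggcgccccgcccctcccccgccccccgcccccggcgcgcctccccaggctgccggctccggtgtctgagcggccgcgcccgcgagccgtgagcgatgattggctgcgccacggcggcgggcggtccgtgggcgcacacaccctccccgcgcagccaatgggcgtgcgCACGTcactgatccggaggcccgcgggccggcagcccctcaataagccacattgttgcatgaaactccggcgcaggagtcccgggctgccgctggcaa
HK2 promoter, chr2:74834920-74835219 (plus strand): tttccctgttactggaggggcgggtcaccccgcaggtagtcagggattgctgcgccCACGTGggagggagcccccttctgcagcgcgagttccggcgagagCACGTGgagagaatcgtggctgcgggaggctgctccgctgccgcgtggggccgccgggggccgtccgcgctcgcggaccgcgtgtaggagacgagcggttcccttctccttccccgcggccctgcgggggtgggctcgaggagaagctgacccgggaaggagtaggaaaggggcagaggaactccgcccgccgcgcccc
PFKP promoter, chr10:3068939-3069238 (plus strand): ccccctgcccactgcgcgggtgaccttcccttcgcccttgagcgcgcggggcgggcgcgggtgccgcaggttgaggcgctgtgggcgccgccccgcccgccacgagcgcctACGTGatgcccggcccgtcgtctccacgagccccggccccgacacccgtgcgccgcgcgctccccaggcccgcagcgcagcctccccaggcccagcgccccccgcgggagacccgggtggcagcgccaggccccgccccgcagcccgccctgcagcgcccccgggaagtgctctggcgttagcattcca
PDK1 promoter, chr2:172555840-172556139 (plus strand): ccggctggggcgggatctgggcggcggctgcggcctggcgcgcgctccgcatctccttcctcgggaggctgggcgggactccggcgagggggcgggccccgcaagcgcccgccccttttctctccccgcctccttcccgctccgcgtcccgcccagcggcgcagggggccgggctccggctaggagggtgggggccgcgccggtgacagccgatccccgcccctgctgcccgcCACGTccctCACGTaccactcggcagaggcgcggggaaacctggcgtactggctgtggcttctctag
ENO2 promoter, chr12:6914330-6914629 (plus strand): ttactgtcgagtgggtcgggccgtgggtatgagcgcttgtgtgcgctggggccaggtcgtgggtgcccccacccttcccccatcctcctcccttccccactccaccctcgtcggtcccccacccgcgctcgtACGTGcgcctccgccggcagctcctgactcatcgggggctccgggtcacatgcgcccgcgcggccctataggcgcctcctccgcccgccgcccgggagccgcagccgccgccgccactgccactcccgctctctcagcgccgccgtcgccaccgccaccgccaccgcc
PFKFB4 promoter, chr3:48556754-48557053 (minus strand): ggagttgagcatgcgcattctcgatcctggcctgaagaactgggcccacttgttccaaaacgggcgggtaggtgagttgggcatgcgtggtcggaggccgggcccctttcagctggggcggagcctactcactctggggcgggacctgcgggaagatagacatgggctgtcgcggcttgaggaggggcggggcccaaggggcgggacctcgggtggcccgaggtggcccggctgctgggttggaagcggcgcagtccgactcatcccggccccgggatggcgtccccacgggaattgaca

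Among the 11 promoters listed for the 6 genes (several starts are listed for HK2, PDK1 and PFKP), 5 held the core (45.5%), and these are the ones shown first. The PFKFB4 promoter, shown last, held none, nor did that of PFKL. The core was in 22 of the 60 promoters of the member genes (36.7%) and in 21.4% of 35116 promoters. Among LDHA, PGK1 and SLC16A3, the core was in 1 of the 2 LDHA promoters, in that of PGK1 and in 1 of the 5 of SLC16A3. It was also in every listed ALDOA promoter and in 1 of the 2 of PFKFB3, but not in that of SLC2A1 or that of PKM. The E-box CACGTG was in 8 of the 60 (13.3%) and in 7.26% of all, and among the genes that fell it occurred in the second HK2 promoter shown. Starts of one gene can overlap, and a match describes these letters only.

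The other genes of carbohydrate metabolism were a list of 52 that includes further transporters, isozymes and enzymes of pyruvate use. Probes were found for 51 of them, and 43 of 72 probes from 33 genes were tested, while 29 were too dim. Of the 43, 24 passed the test (55.8%, beside 57.7% of all probes), 9 lower (20.9%, beside 28.0%) and 15 higher (34.9%, beside 29.7%), with a median log2 fold change of 0.09. With normexp 4 passed it (9.3%, beside 11.6%), 2 in each direction, and with spike-in scaling 10 (23.3%, beside 26.8%), of which 1 was lower. In the pentose phosphate genes of this list, 1 of 12 probes was lower (8.33%) and 6 were higher (50%), but 2 of the higher ones (H6PD A_24_P626850 and TKTL1) passed the filter on dim signal through the condition where they were high. In those of pyruvate and lactate use, 3 of 16 were lower (18.8%) and 5 higher (31.2%).

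The inositol polyphosphate phosphatase MINPP1, which can also remove a phosphate from 2,3-bisphosphoglycerate, was the one with a fold change of at least 2. It rose by 1.09 on the log2 scale (A_23_P115885, SE 0.24, limma adjusted p = 0.00188), with 5 of 6 control arrays well above background, and with normexp its change was 0.11 (limma adjusted p = 0.90). Named after their values were seen, the transporter SLC2A8 fell at all 3 probes (log2 fold changes of -0.995, -0.56 and -0.47), and the anaplerotic enzyme PC (pyruvate carboxylase) fell by 0.76 (limma adjusted p = 2.11e-07). The mitochondrial PCK2, which makes phosphoenolpyruvate from oxaloacetate, rose at both probes (0.80 and 0.43), and PDHX, a structural subunit of the pyruvate dehydrogenase complex, rose by 0.64 (limma adjusted p = 4.33e-06). The complex's acetyltransferase subunit DLAT had probes past the test both ways (0.35 and -0.40). Of the 8 probes of this list with a fold change of at least 1.5 in the fit, 3 passed the test with normexp, those of SLC2A8 (A_24_P175435), PC and PDHX.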

How the data were processed

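Expression was measured with cyanine3-labelled cRNA of the H358/Tet-On/SRSF2 clone on 12 one-colour Agilent 44 k chips. The authors deposited scanner files of Feature Extraction 10.7.3.1, which hold each spot's processed intensity (background already subtracted), and their own log2 table, which follows (correlation 0.998) the log2 processed intensity minus the array's 75th percentile and the probe's centre. Their methods name GeneSpring GX, exclusion of genes missing in over 25% of samples, and Benjamini-Hochberg adjustment of a t-test.

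Here the log2 processed intensity was averaged over the spots of each probe and set relative to the 75th percentile of all gene probes on its array, without outlier and control spots. The test took in probes missing on at most 25% of arrays that stood well above background on 5 or more of the 6 arrays of either condition. Both conditions were fitted in limma 3.58.1 (lmFit, eBayes; R 4.3.3) with no covariates over 24330 probes, and the code was tested on simulated data. The exact permutation test ran over 924 arrangements of 6 arrays against 6, which allow no two-sided p below 0.00216. If the 3 labelings were the units, no exact p under 0.1 could be reached. The number of arrays limits the precision, and 0 spots were saturated.

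Symbols came from the RefSeq gene table of GRCh38.p14, through which 23958 of 25868 probes with a RefSeq accession were named. The array files use another build, so coordinates are given for RefSeq promoters alone. Members and gene lists were chosen with earlier results of these data known. Given in full were member probes past the test with a fold change of at least 1.5, GAPDH and SRSF2, with the rest by values or ranges, and of the other carbohydrate genes those with at least 2-fold.

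Replicate numbers 1 to 6 occur in both conditions. Same-numbered arrays deviated together from the mean of their condition (correlation 0.28 to 0.64, 6 pairs), but so did differently numbered arrays that shared a slide (0.33 to 0.65), unlike arrays of different slides (-0.48 to -0.05). The numbers therefore pair the arrays through the slide. Other settings were scaling by the median, by quantiles or by 7 spike-in probes (also leaving out slide 1); normexp on the median spot signal with an offset of 50, or unsubtracted signal; the deposited log2 table; no filter, or a filter at 9 of 12 arrays; keeping outlier spots; the methods' t-test; a block for slide or for replicate number; averaging each slide's 2 arrays of a condition, with or without the slide block; and leaving out each slide or the 2 arrays of highest background.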

Additional observations from a re-analysis of the deposited data

Results flagged for a closer look

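Among 100 groups of 5 or 6 arrays (50 probes in both conditions), 2 held an array far from the others, where chance alone gives about 1 in 20, or 5. For PFKFB3 A_23_P95755, control replicate 2 was the lowest at -3.76 on the log2 scale relative to the 75th percentile, with the nearest control array at -2.88, and this gap was 0.925 of the range of the 6 arrays. For ENO2 A_24_P236091, control replicate 2 was again the lowest, at -3.33 with the nearest at -2.80, and the gap was 0.718 of the range. Both arrays are the same array on slide 1, and without slide 1 the log2 fold change was -0.38 for the PFKFB3 probe and -1.35 for the ENO2 probe.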

How the results depend on the processing

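The number of member probes past the test, 28 of 50 as reported, was 7 with spike-in scaling (14%, beside 26.8% of all probes), 9 with that scaling without slide 1 (18%, beside 25.9%), 5 with normexp (10%, beside 11.6%), 11 with the mean of 2 arrays as 1 replicate (22%, beside 39% of all) and 18 with those means and slide as a block (36%, beside 54.8%). Lower calls were 78.6% of the calls as reported (48.5% over all probes), 71.4% with spike-in scaling (22.9%), 90.9% with the means of 2 arrays (49.3%) and 100% of 5 calls with normexp (50%). Past the test and 2-fold were 4 probes, 1 with spike-in scaling and 2 with normexp. The median log2 fold change of -0.14 became 0.069 with spike-in scaling and -0.013 with normexp. The other carbohydrate probes past the test, 24, became 10 with spike-in scaling (23.3%, beside 26.8% of all), 11 with it without slide 1 (25.6%, beside 25.9%) and 4 with normexp (9.3%, beside 11.6%). With the replicate block (the replicate number as a block), 33 member probes passed the test (66%, beside 65.8% of all), and the calls it changed are given in the report. With slide as a block 37 passed it (74%, beside 70.1%). Leaving out slide 1, 2 or 3 left 27 (54%, beside 52.7%), 24 (47.1%, beside 56.7%) and 19 (38%, beside 46%). Direction turned under spike-in scaling for PFKFB3 A_24_P261259 (0.012), PKM A_32_P147241 (0.066) and A_23_P399501 (0.032), PDHA1 (0.076) and RPIA (0.046), and with normexp for PKM A_32_P147241 (0.0021), RPIA (0.011), H6PD A_24_P626850 (-0.057) and TKTL1 (-0.11), all past the test as reported and not under that setting. These scalings moved all probes, whose median was 0.219 with spike-in scaling and -0.098 with normexp. The 5 probes that turned under spike-in scaling lay below that median, and the member median minus that of all probes was -0.150, beside -0.153 as reported. The causes were not tested.

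Over 19 alternatives and 50 probes, 786 of the values kept their direction where called and their side of the threshold, 131 were no longer past it, 26 came to pass it and 7 turned. HK2 at both probes, PFKP and PFKFB4 passed the test under all 19. Signal over background limits the dim probes, and 43 of the 50 member probes stood well above background on all 12 arrays.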
